A study of Mus musculus with 4 samples.

Results

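The comparison set wild-type mouse liver at 11 months of age against wild-type mouse liver at 5 months. It rests on 2 of the 4 arrays of the series, chosen by genotype and age alone and not by any measured value. The study measured liver RNA on Affymetrix Mouse Genome 430 2.0 arrays in WHV/c-myc transgenic mice, a strain in which c-myc is joined to regulatory sequence of the woodchuck virus WHV and hepatocellular carcinoma arises with age, and in wild-type C57/BL6 mice of matched age as controls. The 4 groups were wild-type liver at 5 months, wild-type liver at 11 months, tumour-free but dysplastic transgenic liver at 5 months, and transgenic liver tumour at 11 months. Each group had 1 array that stood for 5 mice, and the labels describe these both as a mixture of livers and as a mean over separate samplings. All mice were of the C57/BL6 strain, kept in a pathogen-free facility on a 12:12 cycle of light and dark with food and water always at hand, were checked each week, and were killed once the abdomen had widened, a sign the labels do not set out separately for wild-type mice. Sex, the hour of sampling, the time since the last meal and the date of hybridisation are absent from the labels used for this comparison.

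The adult liver turns fat and sugar into storage or fuel, makes cholesterol and bile acids, and secretes most plasma proteins. Several of its gene programs have well known switches. The SREBP factors drive the enzymes of cholesterol and fatty acid synthesis, PPAR-alpha drives fatty acid oxidation, inflammatory cytokines drive the acute phase proteins, and hormones, feeding, the daily clock and stress move the immediate early genes within minutes to hours. Fat droplets in hepatocytes are coated by perilipins and CIDE proteins and are broken down by lipases.

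With 1 array per age there was no replicate, so no error, p-value or test is given for any difference between the ages, and age cannot be told apart from any other difference between these arrays. The deposited median intensity was 27.6 on the 5-month and 24.5 on the 11-month wild-type array, and all intensities below were quantile normalized over the 4 arrays. Intensities under 28.275, the median of all normalized values, were treated as a floor. Rank correlation between the wild-type arrays over 13950 genes was 0.915, against 0.932 for wild-type and transgenic liver at 5 months. All 10 measured hepatocyte markers lay above the floor at both ages, with ratios from -0.49 to 0.42 on the log2 scale and Alb, which encodes albumin, at intensities of 5205 and 5805. The Y-linked Eif2s3y read 331 and 288, and Xist, the RNA of the inactive X chromosome, read 63.3 and 71.0. The ratio of the 3' to the 5' actin control probe sets, which rises as RNA is degraded, was 1.90 at 5 months and 2.32 at 11 months, while that of Gapdh was 0.832 and 0.837. The part of this difference in the results below was not tested.

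Of 18194 genes, 12810 had a ratio between the wild-type ages. At 11 months 275 genes (2.15%) were at least 2-fold higher and 319 (2.49%) at least 2-fold lower, 4.64% in all. The median ratio over all genes was 0.02, and 52.6% of genes lay above 0 and 47.3% below. In 95% of genes the ratio lay between -1.0 and 0.96. Higher genes made up 46.3% of the calls after quantile normalization and 20.4% in the values as deposited, where the median of all genes was -0.15. Among the 10386 genes above the floor on both arrays, 144 were 2-fold higher and 187 lower. The other 263 calls were bounds, in which the gene lay at the floor at the other age. A ratio of 4-fold was passed by 9 genes upward and 8 downward.

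The calls were unevenly spread over signal levels. When genes were ranked by mean intensity and cut into 5 equal parts, 15.6% of genes with mean intensities of 37.7 to 61.0 passed 2-fold, against 1.60% of the brightest part. In the dimmest part, with means of 28.3 to 37.7, 0 of 2562 genes passed, as a 2-fold ratio cannot arise so near the floor. The genes given below are the extremes of the ranking, the members of each list with the largest ratios, and further members named for their role in the pathway with their values already seen. The plot of intensities at both ages shows how the cloud narrows toward the bright end. Among the brighter genes outside it were Saa1, Saa2, Cyp4a14, Vnn1 and G0s2 above, and Igfbp1, Elovl3, Acss2 and Egr1 below.

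**Figure D1:**
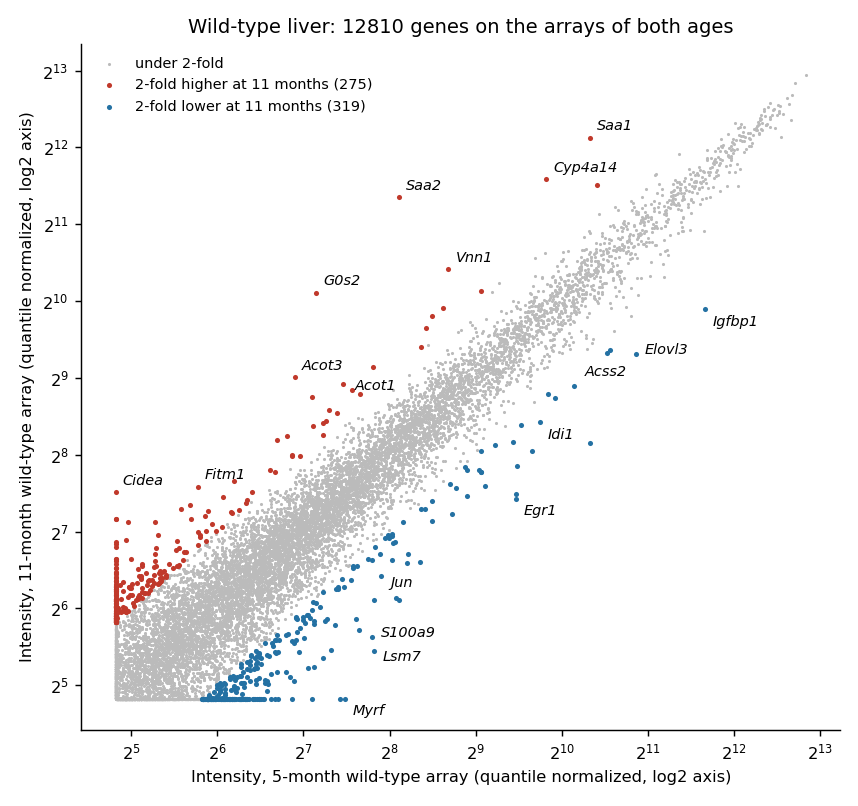
Intensity of each of 12810 genes on the 5-month (x axis) and the 11-month (y axis) wild-type array, both log2 axes, with values under the floor of 28.275 drawn at the floor. The 275 genes 2-fold higher and the 319 genes 2-fold lower at 11 months are mostly dim genes, and Saa2, G0s2, Cyp4a14 and Igfbp1 stand out among the brighter genes.

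Several genes of lipid droplets were higher at 11 months. Of 23 members of the list of lipid droplet and lipolysis genes, 6 were 2-fold higher and 1 was lower, where 2.15% and 2.49% of all genes were. The ratio was above 0 in 19 members and below in 4, and the list's median was 0.46, against 0.02 over all genes. A member under the floor at both ages has no ratio and counts as 0 in a list median. In whole tissue, fewer cells of a type and less RNA per cell cannot be told apart. It stayed above 0 under all 3 other scalings, from 0.27 as deposited to 0.46. G0s2, an inhibitor of the triglyceride lipase ATGL, read 141 at 5 months and 1105 at 11 months, a log2 ratio of 2.97. In transgenic liver it read 734 at 5 months and 378 in the tumour array, so the 5-month wild-type array was the low one of the 4. Cidea, a droplet protein of brown and white fat that appears in fatty liver, read 3.0 at 5 months and 183 at 11 months. Because the 5-month value was under the floor, Cidea was at least 6.48-fold higher, and it was under the floor on both transgenic arrays at 3.2 and 13.2.

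The coat protein gene Plin4 read 7.2 and 87.6 and was at least 3.10-fold higher. Fitm1, whose product partitions fat into droplets, read 54.8 and 192, a ratio of 1.81. Its relative Fitm2 read 125 and 252, a ratio of 1.02. The fatty acid transporter gene Cd36 was at 154 and 346, a ratio of 1.17, with 0.36 and 1.33 on its other probe sets. Smaller ratios of 0.98, 0.70, 0.63 and 0.55 were found for Angptl4, which inhibits lipoprotein lipase, for the droplet coat gene Plin2, for the monoglyceride lipase gene Mgll and for Plin5. Plin2 read 1379 at 5 months and 2238 at 11 months. The 1 member 2-fold lower was Lpl, which encodes lipoprotein lipase, with 254 and 124 and a ratio of -1.03. Another probe set of Lpl gave -1.38. The fat cell markers Adipoq and Lep were under the floor on both arrays, with Adipoq at 10.7 and 3.93 and Lep at 2.15 and 5.73. Of 10 adipocyte markers on the array, 8 had a ratio. Of the 8, 1 was 2-fold higher (Cidea) and 1 lower (Lpl), where 2.15% and 2.49% of all genes were. The summed intensity of the 10 was 7209 at 5 months and 6038 at 11 months.

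The plot of list members shows each ratio for 10 lists. Most members of the cholesterol list lie left of 0 and most members of the lipid droplet and fatty acid oxidation lists right of it.

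**Figure D2:**
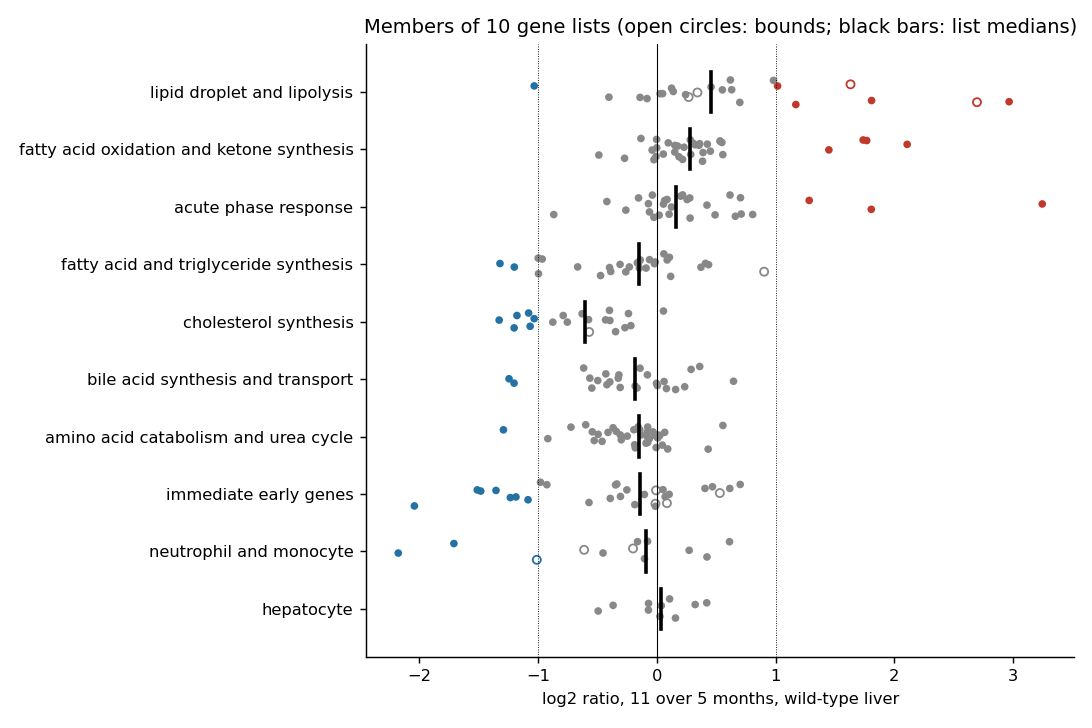
Log2 ratio of 11 over 5 months in wild-type liver for the measured members of 10 gene lists, with 1 circle per gene, open where the gene was at the floor at 1 age, red or blue past 2-fold and a black bar at the list median. The medians run from 0.46 for lipid droplet genes to -0.60 for cholesterol synthesis.

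Fatty acid oxidation genes were also mostly above 0. Of 34 members with a ratio, 26 lay above 0 and 7 below, and the median was 0.28. Among the 34, 4 were 2-fold higher and 0 lower, where 2.15% and 2.49% of all genes were. As deposited the median was 0.09, against -0.15 for all genes there. The leading members were enzymes around the fatty acyl-CoA pool that PPAR-alpha is known to induce. Cyp4a14, an omega hydroxylase of fatty acids, read 905 and 3079, a ratio of 1.77. Vnn1, the pantetheinase that returns the coenzyme A precursor, read 411 and 1370, a ratio of 1.74, and another probe set of it gave 2.45. The acyl-CoA thioesterase gene Acot1 read 177 and 483, a ratio of 1.45. Acot3, a peroxisomal thioesterase, read 120 and 516, a ratio of 2.11. Its probe set may read related transcripts too, and its neighbours in the same gene cluster differed, with ratios of 0.56 for Acot4 (1.74 on another probe set) and -0.27 for Acot2. On the transgenic arrays, Cyp4a14 read 1729 and 399 and Acot3 read 568 and 102, so the tumour array was the lowest of the 4 for both.

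The core of the pathway differed less. Slc25a20, the carnitine carrier of the mitochondrial membrane, read 870 and 1273, a ratio of 0.55. Ratios of 0.53 were found for both Decr1 and Eci2, auxiliary enzymes for unsaturated fatty acids. The acyl-CoA dehydrogenases Acadl, Acadvl and Acadm had 0.43, 0.39 and 0.39. Cpt1a, the gate of mitochondrial entry, had 0.23 on the probe set used and -1.19 and -1.08 on its 2 others, and Ppara itself had 0.05, with 603 and 627. The pyruvate dehydrogenase kinase gene Pdk4 was low on both arrays, with 41.1 and 29.3. Further genes of this kind lay outside the list and were chosen after their values were seen. Pex11a, which promotes division of peroxisomes, read 361 and 896, a ratio of 1.31. The carnitine transporter gene Slc22a5 read 112 and 303, a ratio of 1.44. For each of them another probe set also passed 2-fold, at 1.13 for Pex11a and 1.45 for Slc22a5. The element to which PPAR-alpha binds, searched on both strands as 2 copies of AGGNCA with any 1 base between them, was found in 0 of 29 promoters of the oxidation list and in 0.407% of the 10318 genes with both a ratio and a promoter.

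Among 29 acute phase genes, 3 were 2-fold higher and 0 lower, where 2.15% and 2.49% of all genes were. The ratio was above 0 in 21 and below in 8, and the median was 0.16 (0.07 as deposited). The serum amyloid A genes, whose products travel on high density lipoprotein during inflammation, led the list. Saa2 read 276 at 5 months and 2617 at 11 months, a ratio of 3.25 or 9.48-fold. Saa1 read 1281 and 4478, a ratio of 1.81, and another probe set of it gave 1.99. On the transgenic arrays Saa2 read 102 and 279 and Saa1 read 277 and 898, so the 11-month wild-type array was the high one of the 4 for both. The probe set of Saa2 carries the suffix of probes that can match several transcripts, and how far it separates the Saa2 from the Saa1 transcript was not tested. The 250 bases before each start of transcription are printed because these neighbouring genes lead the list and share much of this stretch. Both are on chromosome 7 in RefSeq's mouse assembly GRCm38.p6, Saa1 at chr7:46742981-46743230 on the minus strand and Saa2 at chr7:46751583-46751832 on the plus strand, and capitals mark the longest run of 65 bases that they share.
Saa1: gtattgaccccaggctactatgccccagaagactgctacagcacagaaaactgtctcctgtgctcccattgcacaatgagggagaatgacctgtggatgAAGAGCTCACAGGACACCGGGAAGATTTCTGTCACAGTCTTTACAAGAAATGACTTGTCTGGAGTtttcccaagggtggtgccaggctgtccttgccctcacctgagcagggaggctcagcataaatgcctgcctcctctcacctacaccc
Saa2: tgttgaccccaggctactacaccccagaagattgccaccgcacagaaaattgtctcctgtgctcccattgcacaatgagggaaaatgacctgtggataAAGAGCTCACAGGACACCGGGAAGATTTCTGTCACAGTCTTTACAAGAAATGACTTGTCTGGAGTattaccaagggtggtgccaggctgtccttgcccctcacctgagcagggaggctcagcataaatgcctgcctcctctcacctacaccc
Over an alignment of 251 positions, 238 (94.8%) were identical.

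Orm2, an orosomucoid, read 157 and 382, a ratio of 1.28, while Orm1 had 0.07. Saa3, the serum amyloid of macrophages and stressed hepatocytes, read 120 and 210, a ratio of 0.81, and the liver-specific Saa4 had 0.49. Lrg1, a leucine-rich glycoprotein induced by IL-6, had 0.62. The most abundant acute phase transcripts differed little, with 0.20 for Hp (haptoglobin), 0.10 for Hpx (hemopexin) and -0.07 for Fgb (the fibrinogen beta chain). The IL-6 feedback gene Socs3 had -0.06, and Cd14, a co-receptor for bacterial lipopolysaccharide, read 81.0 and 44.4, a ratio of -0.87. Among 31 complement and coagulation genes, 0 passed 2-fold in either direction, where 4.64% of all genes did. All 31 had mean intensities of at least 76.575, the 75th percentile of all values. Of all 6754 genes of that level, 2.1% passed 2-fold. The inflammatory cytokine list had 0 higher and 1 lower of 20, where 2.15% and 2.49% of all genes were. That gene was Ccl9, a macrophage chemokine, with 736 and 334, a ratio of -1.14 on each of its 2 probe sets.

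Cholesterol synthesis stood on the other side. All but 1 of its 20 members lay below 0, 6 were 2-fold lower and 0 higher (2.49% and 2.15% of all genes were), and the median was -0.60, from -0.80 as deposited to -0.44 with the mean of all probe sets. Among its 18 members with a mean intensity of at least 76.575, the 75th percentile of all values, 18 lay below 0, with a median of -0.69. Over all 6754 genes of that level, 53.4% lay above 0. In the order of the pathway, Hmgcs1, which makes HMG-CoA, read 2324 and 1267, a ratio of -0.88, and its other probe sets ranged from -1.33 to 0.40. Mvk, the mevalonate kinase gene, read 42.0 and, under the floor, 14.7. Mvd, which makes isopentenyl pyrophosphate, was the exception, with 74.3 and 77.2 and a ratio of 0.06 (-0.76 on another probe set). Idi1, the isomerase of the following step, read 859 and 342, a ratio of -1.33. Its other probe set gave -0.91. Fdps, which joins the isoprene units, read 969 and 429, a ratio of -1.18.

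In the sterol branch, Sqle, the squalene epoxidase gene, read 197 and 93.5, a ratio of -1.08. Lss and Cyp51 followed with -0.79 and -0.63. Msmo1, a methyl sterol oxidase, read 1472 and 640, a ratio of -1.20, and Nsdhl had -0.75. Dhcr7, the last reductase, read 175 and 83.4, a ratio of -1.07. Insig1, which holds the SREBP escort in the membrane and is itself an SREBP target, read 285 and 139, a ratio of -1.03. Srebf2, the gene of the sterol-regulated factor, had -0.57. On the transgenic arrays Idi1 read 1474 and 713, Fdps read 1943 and 1055 and Sqle read 604 and 269. For these 3 genes the 11-month wild-type array was the lowest of the 4 and the 5-month transgenic array the highest. The same held for Dhcr7, with 307 and 219 on the transgenic arrays. It did not hold for Msmo1, lowest on the tumour array at 410, or for Insig1, highest on the 5-month wild-type array.

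The sterol regulatory element in the form TCACNCCAC was searched on both strands in the 250 bases before and 50 after each start site. It was found in 1 of 16 promoters of the cholesterol list and in 1.47% of the 10318 genes with a ratio. That promoter is Hmgcs1, at chr13:119690101-119690350 on the plus strand of GRCm38.p6, shown because its gene is the first of the pathway in the list. Capitals mark the match, TCACCCCAC, which begins 137 bases before the start and lies on the strand of the gene, and the window holds no match to the other 5 motifs searched.
Hmgcs1: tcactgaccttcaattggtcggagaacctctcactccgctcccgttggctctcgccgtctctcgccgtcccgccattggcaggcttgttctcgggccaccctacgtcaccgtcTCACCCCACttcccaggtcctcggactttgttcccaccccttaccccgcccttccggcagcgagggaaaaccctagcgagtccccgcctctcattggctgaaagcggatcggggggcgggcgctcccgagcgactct
A match is a description of these letters and does not show a binding site.

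Fatty acid and triglyceride synthesis, which shares regulators with the cholesterol pathway, was more mixed. Of 28 members, 2 were 2-fold lower and 0 higher, where 2.49% and 2.15% of all genes were. The ratio was below 0 in 20 and above in 8, and the median was -0.15. Acss2, which turns acetate into acetyl-CoA, read 1508 and 657, a ratio of -1.20, and another probe set gave -1.14. Pnpla3, a lipase gene near the floor, read 83.3 and 33.4, a ratio of -1.32 that shrank to -0.12 with the floor at the 75th percentile. Fasn, the fatty acid synthase gene, read 647 and 332, a ratio of -0.96. Srebf1 had -0.67, and Elovl5 and Acly had -0.47 and -0.39. Scd1, the main desaturase of liver, was the same on both arrays, with 5447 and 5399, and Dgat2, which makes triglyceride, had 0.11. Mlxipl, the gene of the glucose-sensing factor ChREBP, had 0.12. Txnip, a ChREBP target chosen after its values were seen, read 202 and 442, a ratio of 1.13, with 1.66 on another probe set. Fabp5, a fatty acid binding protein also chosen afterwards, read 716 and 231, with -1.63 and -2.18 on its probe sets.

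The plot of 16 genes gives the intensities on all 4 arrays, so that the wild-type ages can be read beside the transgenic liver.

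**Figure D3:**
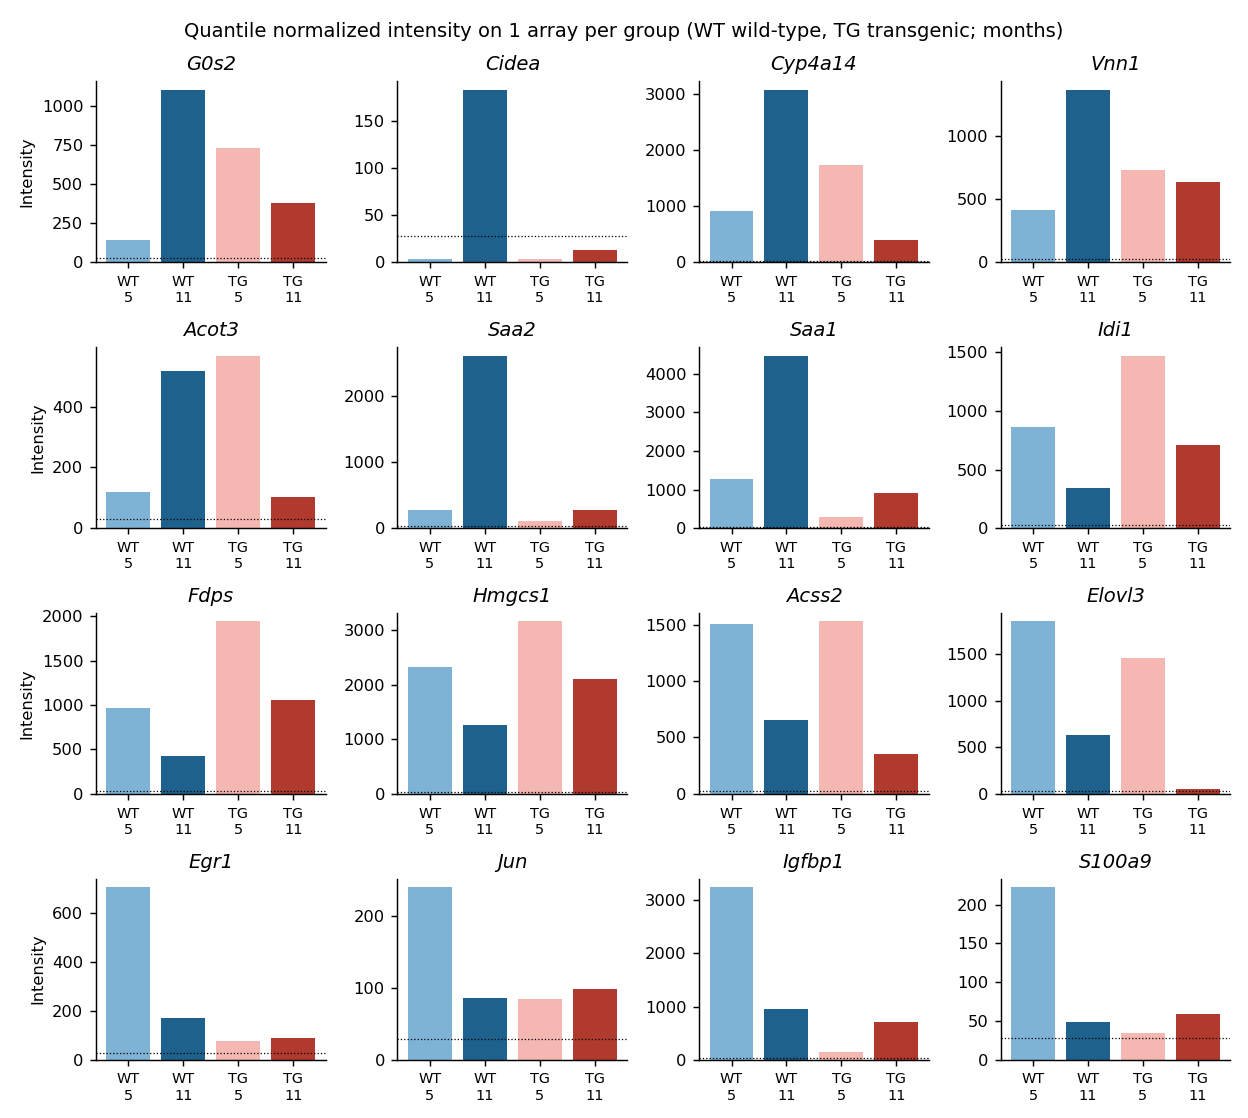
Bars give the quantile normalized intensity of 16 genes on each of the 4 arrays (WT wild-type, TG transgenic, age in months; 11-month TG is tumour), on a linear axis from 0, with the floor dotted and no error bars because each group had 1 array. Saa2 reads 2617 on the 11-month wild-type array and at most 279 on the others, and Igfbp1 reads 3242 on the 5-month wild-type array and at most 950 on the others.

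Bile acid genes were lower more often than higher. Of 25 members, 17 lay below 0 and 8 above, and the median was -0.18. Among the 25, 2 were 2-fold lower and 0 higher, where 2.49% and 2.15% of all genes were. Akr1d1, the steroid 5-beta-reductase of bile acid synthesis, read 1131 and 478, a ratio of -1.24, with -1.20 on another probe set. Slco1a4, an uptake transporter of organic anions, read 437 and 190, a ratio of -1.20. Cyp7a1, the rate-limiting enzyme, read 1257 and 891, a ratio of -0.50, and Cyp8b1 and Cyp27a1 had -0.40 and -0.43. The phospholipid exporter gene Abcb4 was the highest of the list, with 824 and 1290 and a ratio of 0.65. The bile acid receptor gene Nr1h4 had 0.36 and its target Nr0b2 had -0.55.

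Amino acid catabolism showed many small differences of the same sign. Of 38 members, 30 lay below 0 and 8 above, with a median of -0.15. Among the 38, 1 was 2-fold lower (2.63%), where 2.49% of all genes were. That member was Gldc, of the glycine cleavage system, with 534 and 218, a ratio of -1.29. The aminotransferase genes Got1 and Agxt had -0.92 and -0.72, the histidine ammonia-lyase gene Hal had -0.60, and Cth, of transsulfuration, had -0.54. The urea cycle enzymes Cps1, Otc, Asl and Arg1 had -0.16, -0.18, -0.19 and -0.14, while Nags, which makes the activator of Cps1, had 0.56. Of 17 genes of the periportal zone, 2 were 2-fold lower, where 2.49% of all genes were. These were Cdh1, the E-cadherin gene, with 476 and 177 (ratio -1.42), and the mitochondrial aldehyde dehydrogenase gene Aldh1b1, with 170 and 77.0 (ratio -1.14). Of 20 pericentral genes, 1 was 2-fold lower, where 2.49% of all genes were, and the median was 0.00. That gene was Avpr1a, the vasopressin receptor of liver, with 170 and 77.4 and a ratio of -1.13 (-0.56 on another probe set).

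Immediate early genes, which cells switch on within minutes of a stimulus, had 7 of 29 members 2-fold lower and 0 higher, where 2.49% and 2.15% of all genes were. The ratio was below 0 in 20 and above in 9, with a median of -0.14. Among the 15 members with a mean intensity of at least 76.575, 12 lay below 0 and the median was -0.57. Egr1, a zinc finger factor, read 708 and 172, a ratio of -2.04, against 78.0 and 87.2 on the transgenic arrays. Jun, a subunit of AP-1, read 240 and 85.9, a ratio of -1.48 (-0.81 on another probe set), against 84.9 and 97.9 on the transgenic arrays. For Egr1 and Jun, the 5-month wild-type array thus stood above the other 3. Zfp36, which destabilises cytokine mRNA, read 550 and 193, a ratio of -1.51, and Ier2 read 361 and 141, a ratio of -1.35. Dusp6, a phosphatase of ERK, read 261 and 123, a ratio of -1.08. The list was not uniform: Fos had -0.39, Junb had 0.47, Klf2 had 0.61 and Klf10 had 0.70. Myc read 42.5 and 42.2, a ratio of -0.01.

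Btg2, an antiproliferative gene, read 177 and 77.9 with a ratio of -1.19, and another probe set gave -1.64. Atf3, a stress factor, read 102 and 43.4 with a ratio of -1.23. Their promoters are shown because each holds a match to a pattern modelled on motifs of inducible genes. The cAMP response element TGACGTCA, which reads the same on both strands, was found in 4 of 26 promoters of the list (those of Btg2, Dusp1, Maff and Ppp1r15a) and in 3.18% of the genes with a ratio. A looser pattern resembling the serum response box, CCTTAT with any 2 bases and GG, was found in 2 of 26 (Atf3 and Ppp1r15a) and in 0.717% of those genes. Btg2 lies at chr1:134079156-134079405 on the minus strand and Atf3 at chr1:191183334-191183583 on the minus strand of GRCm38.p6. Capitals mark the matches, which begin 166 bases before the start in Btg2 and 197 bases before it in Atf3, where the letters CCTGATAAGG match on the opposite strand.
Btg2: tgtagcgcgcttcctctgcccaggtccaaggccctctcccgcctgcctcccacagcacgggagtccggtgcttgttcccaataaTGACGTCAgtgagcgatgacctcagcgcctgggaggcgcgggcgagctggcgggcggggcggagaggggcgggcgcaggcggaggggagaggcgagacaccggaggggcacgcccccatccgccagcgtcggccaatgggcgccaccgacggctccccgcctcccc
Atf3: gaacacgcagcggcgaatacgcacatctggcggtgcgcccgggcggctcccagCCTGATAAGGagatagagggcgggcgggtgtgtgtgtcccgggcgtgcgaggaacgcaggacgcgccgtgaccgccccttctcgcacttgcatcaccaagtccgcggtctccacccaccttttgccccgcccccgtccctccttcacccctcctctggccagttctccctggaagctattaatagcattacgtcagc
Neither window holds a match to another of the 6 motifs. Zfp36, whose window holds neither set of letters, had a ratio of -1.51. Dusp1 and Ppp1r15a, which hold a match, had ratios of -0.34 and 0.41. The part of either set of letters in these ratios was not tested.

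Genes that respond to glucocorticoids, insulin and stress included further large differences. Metallothionein and glucocorticoid response genes numbered 18. Of these, 4 were at least 2-fold lower and 0 higher, where 2.49% and 2.15% of all genes were. The median was -0.16. Igfbp1, which binds insulin-like growth factors and is held down by insulin, read 3242 at 5 months and 950 at 11 months, a ratio of -1.77. Ddit4, an inhibitor of mTORC1 induced by stress and glucocorticoids, read 295 and 96.4, a ratio of -1.61. Gadd45g read 165 and 54.9, a ratio of -1.59. Cdkn1a, the p21 inhibitor of cyclin-dependent kinases, read 60.1 and, under the floor, 9.15, so it was at least 2.13-fold lower. Mt1 and Mt2, which bind zinc and respond to glucocorticoids, went the other way, with 0.44 and 0.23, although another probe set of Mt1 gave -1.78. Per1 had 0.61. Among the other genes of fasting, Pck1 and G6pc, which make glucose, had 0.17 and 0.32, and Tat had -0.37.

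The list of p53 targets and senescence genes had 22 members with a ratio. Of these, 5 were 2-fold lower and 0 higher, where 2.49% and 2.15% of all genes were. Its median was 0.00. Besides Gadd45g, Cdkn1a and Btg2, these were Gadd45a, with 150 and 41.0 and a ratio of -1.87, and Sesn1. For Sesn1 the probe set used gave -1.40, while its 3 other probe sets ranged from -0.34 to 0.12. Cdkn2a, which marks senescent cells, was under the floor on both arrays, with 17.2 and 15.6. Cell cycle genes did not pass 2-fold in either direction (0 of 26), where 4.64% of all genes did. Of the 43 on the array, 17 were under the floor at both ages.

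Among 16 neutrophil and monocyte genes on the array, 12 had a ratio. Of the 12, 3 were 2-fold lower and 0 higher, where 2.49% and 2.15% of all genes were. S100a9 read 223 and 49.2 and S100a8 read 225 and 68.9, ratios of -2.18 and -1.71. These calprotectin genes are abundant in neutrophils, and read 34.7 and 28.7 on the 5-month transgenic array. Ccr2, of inflammatory monocytes, read 57.0 and, under the floor, 15.4, with -0.07 and -0.04 on its other probe sets. The granule genes Camp and Mmp9 and the receptor gene Cxcr2 were under the floor on both wild-type arrays, with Camp at 2.77 and 3.58. Ngp had -0.45, Csf3r had -0.10, Lcn2 had 0.42 and Mpo had 0.61. The summed intensity of the list was 1073 at 5 months and 695 at 11 months. Its part in the acute phase and immediate early results was not tested.

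Of 17 Kupffer cell and macrophage markers, 1 was 2-fold higher, where 2.15% of all genes were. It was the scavenger receptor gene Marco, which read 12.7 and 75.8 and was at least 2.68-fold higher, with 0.39 on another probe set. Clec4f, a defining lectin of Kupffer cells, read 310 and 349, and Csf1r read 938 and 945. The list's median was 0.11, and -0.08 in the values as deposited. Lymphocyte markers were few. Of 7 T and NK cell markers with a ratio, 1 was 2-fold higher and 1 lower, where 2.15% and 2.49% of all genes were. Cd8a was the higher (34.7 and 84.5) and Il2rb the lower (61.4 and 28.4), and other probe sets of Cd8a ranged from -0.26 to 0.08. Jchain, of antibody-secreting cells, read 256 and 121, a ratio of -1.08. H2-Ab1, an MHC class II gene of antigen-presenting cells, read 228 and 111, a ratio of -1.04, with -1.06 and -0.42 on its other probe sets. Endothelial markers (19 with a ratio) and stellate cell and fibroblast markers (17) had 0 members past 2-fold in either direction. Over all genes 4.64% passed 2-fold. Among pancreatic acinar markers 1 of 9 was 2-fold lower, where 2.49% of all genes were. This was Prss2, with 79.7 and 19.5, a bound of at least 2.82-fold that its other probe set did not share (0.18). Among muscle markers, Ckm read 39.0 and 105, a ratio of 1.43, and its other probe set gave -0.46.

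Genes that differ between the sexes in mouse liver under the pattern of growth hormone release were looked at next. The median of the female-biased list was 0.00. Of its 15 genes with a ratio, 4 were 2-fold higher and 0 lower, where 2.15% and 2.49% of all genes were. These were Cyp4a14 and Acot3, given above, Cyp2b9, an androgen-repressed cytochrome P450, which read 23.7 and 144 and was at least 5.08-fold higher, and Hao2, a hydroxyacid oxidase, which read 1.93 and 58.4 and was at least 2.06-fold higher. Other defining members stayed under the floor on both wild-type arrays, among them Sult2a2 (2.38 and 27.7), Sult3a1 (6.2 and 1.93) and Cyp3a44 (25.9 and 12.6). On the 5-month transgenic array Cyp2b9 read 368, Hao2 read 309 and Sult3a1 read 342, and Xist read 223. Of 18 male-biased genes, 14 lay below 0 and 4 above, with a median of -0.15. Among the 18, 1 was 2-fold lower, where 2.49% of all genes were. That gene was Elovl3, a fatty acid elongase, with 1854 and 636, a ratio of -1.54. Hsd3b5, a male-specific steroid enzyme, read 1718 and 974, a ratio of -0.82, while the urinary protein gene Mup10 had 0.54. In the growth hormone and IGF list 14 of 18 lay below 0, with a median of -0.23, Socs2 and Cish, both STAT5 targets, at -0.59 and -0.70, and Igf1 at -0.09.

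Several other lists had few calls. In the list of iron and heme genes, 17 of 23 lay above 0, with a median of 0.28 (0.10 as deposited). Among the 23, 1 was 2-fold higher, where 2.15% of all genes were. That gene was Bmp6, the endothelial ligand that raises hepcidin, with 38.4 and 80.2 and a ratio of 1.06. The BMP targets Id3, Id1 and Smad7 had 0.84, 0.62 and -0.37, the heme enzymes Alas1 and Hmox1 had 0.63 and 0.71, and hepcidin itself, Hamp, had 0.12. Of 18 heat shock genes 14 lay above 0, with a median of 0.17 (0.00 as deposited). Hspb1, a small heat shock protein, read 189 and 458, a ratio of 1.28, and another probe set gave 2.36. Of 22 proteasome genes 18 lay above 0 with a median of 0.12, but the median was -0.09 as deposited. No member passed 2-fold among 24 cytosolic ribosomal proteins, 35 genes of oxidative phosphorylation, 27 secreted plasma proteins and 33 glutathione and NRF2 genes. The same held for 23 hepatocyte transcription factors and 18 clock output genes. Over all genes 4.64% passed 2-fold, and 2.1% of the 6754 genes with a mean intensity of at least 76.575. With so low a share, no conclusion is drawn from these counts. The medians of these 6 lists lay between -0.05 and 0.08.

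Of the 16 core clock genes with a ratio, Bhlhe41 was 2-fold higher and Ciart 2-fold lower, where 2.15% and 2.49% of all genes were. Both were bounds near the floor. Bhlhe41 read 6.9 and 61.0, and Ciart read 67.3 and 22.5. Arntl, the BMAL1 gene, which peaks opposite to the Per genes, read 97.0 and 48.6, just under 2-fold, and another probe set gave a log2 ratio of -0.10. Clock had -0.60, and Per1, Cry2 and Nr1d2 had 0.61, 0.65 and 0.35. The part of the hour of sampling in these and the immediate early values was not tested.

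The remaining genes at the ends of the ranking are given by rank, and of these Derl3 belongs to the list of the unfolded protein response. Lsm7, of an RNA-binding ring of splicing and mRNA decay, read 225 and 43.7, a ratio of -2.36, the lowest among genes above the floor on both arrays. Fen1, the flap endonuclease gene of DNA replication, is outside the cell cycle list, and read 276 and 69.2, 3.99-fold lower. Its probe set carries the suffix of probes that can match several transcripts. The other probe set of Fen1 lay under the floor on both arrays, at 13.85 and 20.1. Septin7 and Pdzd11 had -1.97 and -2.17, but their other probe sets gave -0.36 and -0.01. Nwd1 and Cacng7 had -1.94 and -1.93, Rab23 had -1.83 and Fkbp11 had -1.87, with -0.49 on another probe set of Fkbp11. Among bounds whose other probe sets, if any, had the same sign, the largest downward were at least 6.35-fold for Myrf, 6.10-fold for Pcnt, a centrosome scaffold, 4.86-fold for the ion channel gene Piezo1, 3.68-fold for Celf3 and 3.49-fold for Tubb4a. Upward, Gnai1, a G protein subunit, read 31.2 and 139, a ratio of 2.16, with 0.07 and 1.12 on its other probe sets. Trpc4ap, Aif1l, Nr2c1 and Tacc2 had 1.94, 1.84, 1.71 and 1.65, from intensities of 30.8, 38.7, 47.8 and 39.6 at 5 months. Other probe sets gave 0.27 for Aif1l and 0.04 to 0.48 for Nr2c1. Bounds of at least 5.07-fold for Derl3, a gene of endoplasmic reticulum degradation, 4.05-fold for Zfp979 and 3.92-fold for Gpat3, a glycerol phosphate acyltransferase, were among the largest upward bounds under the same rule of sign. Gpat3 is outside the list of fatty acid and triglyceride synthesis.

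Many genes are read by more than 1 probe set, which gives a check within each array. Of the 275 higher genes, 94 had another measured probe set. Of these, 65 had the same sign, 11 were 2-fold higher too and 2 were 2-fold lower. Of the 319 lower genes, 119 had another probe set, 75 with the same sign, 14 also 2-fold lower and 2 higher. The median ratio of the other probe set was 0.25 for the higher and -0.16 for the lower genes. Among all 5251 genes with another probe set the signs were the same in 2912. Probe sets of a gene may read different transcript ends or lie nearer the floor, and the part of either was not tested. The plot of paired probe sets shows most of the other ratios between -1 and 1.

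**Figure D4:**
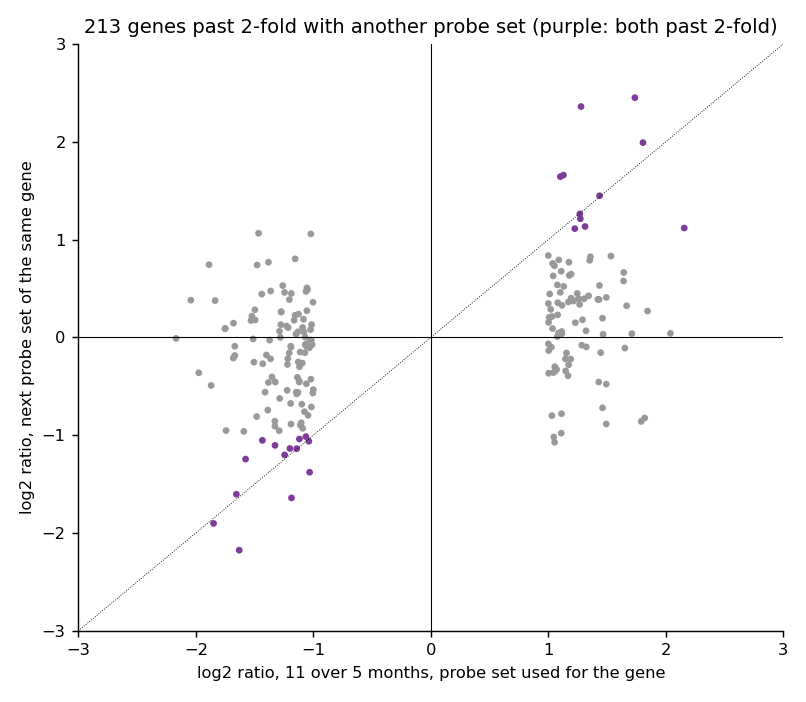
For 213 genes past 2-fold, the log2 ratio of 11 over 5 months on the probe set used (x axis) against the next brightest measured probe set of the same gene (y axis), with equality dotted. Purple points, 11 higher and 14 lower genes, are past 2-fold the same way on both, and most other points lie well inside 2-fold on the y axis.

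The lower genes past 2-fold on both probe sets included Akr1d1, Acss2, Btg2, Ccl9, Fabp5, H2-Ab1 and Lpl. The higher ones included Saa1, Vnn1, Hspb1, Pex11a, Slc22a5, Txnip and Retsat. Retsat, a retinol saturase chosen after its values were seen, read 1355 and 2910, a ratio of 1.10, with 1.64 on the other probe set. Under all 8 other choices of scaling, floor and probe set, 12 genes were 2-fold higher each time and 25 lower. Leaving aside the choice that drops probe sets with suffixes, which removes some genes altogether, the numbers were 17 and 30. The 17 were Saa1, Saa2, Orm2, G0s2, Cidea, Fitm1, Cyp4a14, Vnn1, Acot1, Acot3, Hspb1 and Plekhb1, and, chosen after their values were seen, Lgals1, Grpel2, Pex11a, Inhbe and Slc22a5. The 30 included Egr1, Jun, Zfp36, Ier2, Btg2, Igfbp1, Ddit4, Gadd45g, S100a8, S100a9, Elovl3, Idi1, Gldc, Cdh1, Akr1d1, Slco1a4 and Ccl9. Inhbe, an activin subunit secreted by liver, read 59.3 and 154, a ratio that passed 2-fold each time, while Aqp8 and Sucnr1, a water channel and the succinate receptor, were lower at 533 and 219 and at 689 and 287.

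The transgenic pair of arrays shares no array with the wild-type pair, although all 4 were normalized together, and at 11 months it is tumour tissue, so age and tumour cannot be told apart there. In that pair 12.7% of genes passed 2-fold, 6.79% upward and 5.88% downward. Of 262 genes 2-fold higher in wild-type liver with a ratio in both pairs, 34 (13%) were also 2-fold higher in the transgenic pair and 13 (4.96%) were 2-fold lower. The 34 were 4.59% of the 741 genes higher there. Of 301 genes lower in wild-type liver, 51 (16.9%) were also lower and 24 (7.97%) were higher. The 51 were 6.82% of the 748 genes lower there. Across 9474 genes above the floor on all 4 arrays, Pearson's r between both ratios was 0.11 and Spearman's rho 0.12, a description across genes, which are not independent replicates.

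Genes that were 2-fold higher in both pairs with the largest ratios were Trpc4ap (1.94 and 1.84), Saa1 (1.81 and 1.70), Saa2 (3.25 and 1.46), Gatad2b (1.64 and 1.43) and Plin4 (1.63 and 1.31). Of these and the genes below, the values of Plin4 and Prss2 in both pairs, of Gatad2b in wild-type and of Hectd2os in transgenic liver are bounds. Gatad2b, a subunit of the NuRD complex, had other probe sets from -1.21 to 0.58. Genes lower in both were Slc17a9 (-1.84 and -1.81), Pdzd11 (-2.17 and -1.71), Elovl3 (-1.54 and -4.79), the noncoding Hectd2os (-1.51 and -3.97) and Prss2 (-1.50 and -2.50). Another probe set of Slc17a9 gave 0.38 in wild-type liver. By list, cholesterol synthesis had a median of -0.60 in wild-type and -1.06 in transgenic liver, and the lipid droplet list 0.46 and 0.47. Fatty acid oxidation stood at 0.28 and -0.22, iron and heme at 0.28 and -0.73. Male-biased genes were at -0.15 and -2.48, and cell cycle genes at 0.00 and 2.04. The plot of list medians places the cholesterol and lipid droplet lists at the ends of the wild-type axis, while the tumour pair spans a wider range.

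**Figure D5:**
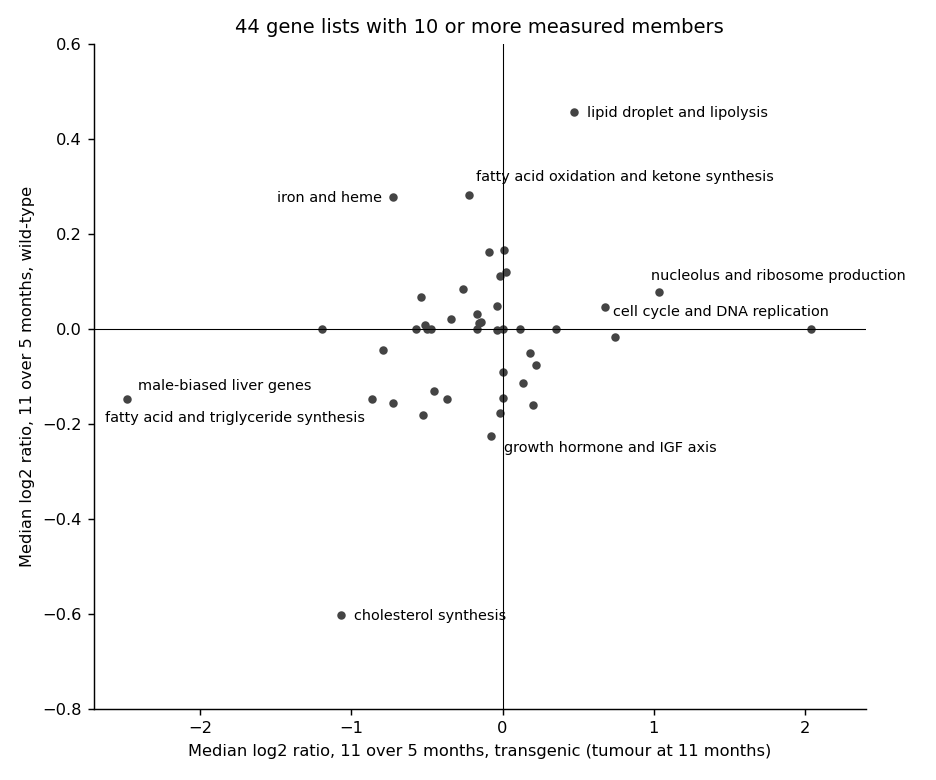
Median log2 ratio of 11 over 5 months for 44 gene lists with at least 10 measured members, in transgenic liver with tumour at 11 months (x axis) and wild-type liver (y axis), on different scales. Cholesterol synthesis is lowest (-0.60) and lipid droplet genes highest (0.46) in wild-type liver, where most lists lie near 0.

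The transgenic liver at 5 months was set between the wild-type ages as a further point of reference. For the 275 higher genes, its value was nearer the 5-month wild-type array in 168 and nearer the 11-month array in 107 (38.9%). For the 319 lower genes the numbers were 198 and 121 (37.9%). The transgenic value lay within the range of both wild-type values in 245 of the higher and 241 of the lower genes. Since the genes were chosen by the same 2 wild-type values, no conclusion is drawn from these counts. For cholesterol genes the median log2 ratio was 0.54 in transgenic over wild-type liver at 5 months. The same median was 0.23 for lipid droplet genes, -0.54 for immediate early genes and -0.70 for metallothionein and glucocorticoid response genes.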

How the data were processed

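Each of the 4 groups had 1 Affymetrix Mouse Genome 430 2.0 array standing for 5 mice, per the labels. The deposited table held 1 intensity per probe set and array for 45101 probe sets, on a linear scale as judged from its values (never below 0). How the authors summarised, background-corrected and scaled these intensities was not stated in the labels or file headers, nor were sex, hour of sampling or scan batch, so age and array cannot be told apart. Spread between mice cannot be estimated from 1 array a group, and arrays carry no depth: their number limits the precision.

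The platform annotation listed 35890 probe sets, 34958 with 1 gene symbol and 932 with several, which were left out with the 9211 unlisted ones. The 4 arrays were quantile normalized. Where several probe sets named a gene alone, the one with the highest mean stood for it, giving 18194 genes. Values under the overall median (28.275) were set to it, genes under it on both arrays got no ratio, and a ratio with 1 side under it was given as a bound. Called means 2-fold, with no test. In list medians, members without a ratio counted as 0.

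The comparison, the 54 lists (39 pathway, 14 cell type and 1 housekeeping, with 1225 of 1371 entries on the array) and the rules were chosen with earlier results of these data known. Genes named by rule were the 12 highest and 12 lowest ratios measured on both arrays and the 5 highest and 5 lowest bounds, where other probe sets had the same sign, up to 6 members of each list with the largest ratios, and the leading genes past 2-fold in both genotypes, in the same or in opposite directions. Further list members were named for their role, and a few genes after their values were seen. Promoters (250 bases before to 50 after the start) were RefSeq's for GRCm38.p6, found by symbol for 10318 of the 12810 genes with a ratio, and motifs were searched on both strands. Alternatives were other scalings, floors, probe set choices and fold sizes. The scripts were tested on simulated data and used Python 3.11.15 with numpy 2.4.6, pandas 2.3.3, scipy 1.17.1 and matplotlib 3.10.9.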

Additional observations from a re-analysis of the deposited data

Results flagged for a closer look

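Among the 109 genes named by rule, 19 passed 2-fold between 5 and 11 months in opposite directions in the wild-type and the transgenic pair. This count is in part set by the choice of genes, since a naming rule picked genes for opposite directions. Among all genes with a ratio in both pairs, 13 of 262 higher in wild-type liver (4.96%) were opposite. Of 301 lower genes, 24 (7.97%) were opposite. These differences were not tested, since each group had 1 array, and the transgenic 11-month array is tumour tissue. Higher in wild-type and lower in transgenic liver were Cyp2b9 (log2 ratios of 2.35 and -3.64), Acot3 (2.11 and -2.48), Cyp4a14 (1.77 and -2.11), Ercc1 (1.67 and -2.23), Plekhb1 (1.34 and -2.58) and Hao2 (1.05 and -1.99). The other probe sets of Ercc1, a nucleotide excision repair gene, gave -0.21 and 0.32 in wild-type liver. Lower in wild-type and higher in transgenic liver were Igfbp1 (-1.77 and 2.38), Fkbp11 (-1.87 and 1.67), Ddit4 (-1.61 and 1.86), Gldc (-1.29 and 1.22), Aldh1b1 (-1.14 and 3.18), Lpl (-1.03 and 2.91) and S100a8 (-1.71 and 1.13). Atf3 (-1.23 and 2.03), Btg2 (-1.19 and 1.08) and Cdkn1a (-1.09 and 2.58) showed the same pattern. So did Pcnt (-2.61 and 1.05), Adssl1 (-1.54 and 2.11) and Arhgap9 (-1.85 and 1.54). The other p53 and senescence genes 2-fold lower in wild-type liver, Gadd45a, Gadd45g and Sesn1, did not turn. Their ratios in transgenic liver were -0.25, -0.16 and -1.08. The values of Cyp2b9, Hao2, Cdkn1a, Pcnt, Adssl1 and Arhgap9 are bounds in wild-type liver, as are those of Atf3 and Arhgap9 in transgenic liver.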

How the results depend on the processing

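No paired analysis was possible because each group had 1 array. The 275 higher and 319 lower genes became 117 and 456 in the values as deposited, 1255 and 1223 with the 25th percentile as floor, 42 and 71 with the 75th, and 485 and 501 with no floor and 16 added before the logarithm. Averaging a gene's probe sets gave 165 and 161. Fold sizes other than 2-fold gave 1222 and 1194 at 1.5-fold, and 31 and 42 at 3-fold. The other 3 settings (a common median, wild-type arrays normalized alone, no suffixed probe sets) gave 223 to 257 higher and 261 to 318 lower. Of the 275 and 319 genes, 117 and 308 were called the same way as deposited, and 41 and 70 with the high floor. Of 92 called named genes, 64 had a value under all 8 alternatives of scaling, floor and probe set, and 26 of these were called the same way under each. Among called genes, signs turned for Gatad2b (-1.18 with wild-type arrays normalized alone, -0.12 with the mean of probe sets), Arhgap9 (0.41, 25th percentile floor), and Cd8a and Hk3 (-0.080 and -0.78 without suffixed probe sets). Of 54 list medians, 11 turned below 0 as deposited, where the median of all genes was -0.15: proteasome and Kupffer (-0.088 and -0.082) and 9 that lay within 0.1 of 0 at the start. The other alternatives turned 6 list values, all from medians within 0.1 of 0. With the high floor Cyp2b9 was at 0.91, Plin4 at 0.19 and Pnpla3 at -0.12. The cause of each shift was not tested. Genes near background are limited by their signal, and no setting supplies the missing replicates.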
